A study of Mus musculus with 4 samples.

Results

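Lens spots were spots of a spatial expression array over the developing mouse eye, chosen by the measured share of 3 lens crystallins. A tissue spot counted as a lens spot where the summed unique molecular identifiers (UMIs, each standing for 1 captured molecule) of Cryaa, Cryba1 and Crygs made up at least 1% of all its UMIs. This rule found 146 lens spots among 6357 tissue spots. There were 66 in the area of E14.5 replicates 2, 3 and 4, 14 in the area of E15.5 replicate 1 and 66 in the area of E15.5 replicates 2, 3 and 4. The area of E14.5 replicate 1 held 0 lens spots among 1106 tissue spots, a count that allows a share of up to 0.271% (counting error only). That bound takes spots as independent, whereas lens spots of the other areas lay mostly in connected groups. The area entered no comparison of lens spots. The levels of the 3 crystallins chose the spots and are given as a description.

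The study followed fusion of the palate, and the lens entered it because coronal sections of whole heads were placed on the array. All embryos were wild-type C57BL/6J mice with no treatment, at embryonic day 14.5 (E14.5) or 15.5 (E15.5), so stage is the only difference between the groups that the labels give. Sections of formalin-fixed, paraffin-embedded tissue lay on 4 capture areas, each a separate library, and the labels put replicates 2, 3 and 4 of a stage together on 1 area. Neither the plane of each section relative to the eye nor the embryo behind each section was given in the sources used here. The p-values below thus rest on spread between areas, pooled in part over genes, and that spread may be technical.

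Hereafter, 3 values in a row are in the order E14.5 replicates 2, 3 and 4, E15.5 replicate 1, and E15.5 replicates 2, 3 and 4. Lens spots held 3621139, 703929 and 2655096 UMIs in these areas, with medians of 52774.5, 44080 and 37161 UMIs per spot. The other tissue spots had medians of 44698.5, 64193 and 45847.5 UMIs.

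The lens is an avascular tissue of surface ectoderm origin, enclosed by a basement membrane called the capsule. Its front is covered by a sheet of dividing epithelial cells, and near the equator these cells leave the cell cycle and elongate into fibre cells, which fill the body of the lens with crystallins, build specialised membranes and later degrade their nuclei. Crystallins are water-soluble proteins whose dense packing gives the lens its transparency and refractive power, and their genes are switched on by a small set of transcription factors that includes Pax6, Maf, Prox1, Hsf4 and Sox proteins.

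Promoters of the crystallins are shown first, because these genes define the spots and had the highest ratios of lens to other spots. Sequences of 300 bases, from 250 bases before to 50 bases after the RefSeq start (GRCm38.p6), were found for 13 of the 14 measured crystallins. They were searched on both strands for the letters TGCTGA (part of a Maf recognition element), AACAAT (a SOX motif) and GAANNTTC (the core of the heat shock element, bound by factors of the Hsf4 family). The Maf letters occurred in 10 of the 13 promoters (76.9%) and in 19.5% of all 32851 mouse promoters of the same length. The SOX letters occurred in 3 of the 13 (Crybb1, Crygd and Crygs), against 10.7% of all promoters. The heat shock letters occurred in 0 of the 13, against 7.86% of all promoters. No match overlapped a match to another motif, and a match describes letters only. The 3 genes of the rule come first, followed by the promoter with the most Maf matches (Cryba4), that of Crygd with SOX matches alone and that of Crygb with no match. All run 5′ to 3′ in the direction of the gene, and capitals mark matches to the Maf or SOX letters on either strand.
Cryaa, chr17:31677681-31677980, plus strand: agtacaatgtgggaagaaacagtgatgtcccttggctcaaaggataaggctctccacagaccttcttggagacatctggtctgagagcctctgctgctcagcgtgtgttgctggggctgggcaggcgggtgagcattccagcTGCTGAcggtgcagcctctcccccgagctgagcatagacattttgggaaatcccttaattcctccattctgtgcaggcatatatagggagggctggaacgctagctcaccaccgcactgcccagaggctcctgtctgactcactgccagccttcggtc
Cryba1, chr11:77725244-77725543, minus strand: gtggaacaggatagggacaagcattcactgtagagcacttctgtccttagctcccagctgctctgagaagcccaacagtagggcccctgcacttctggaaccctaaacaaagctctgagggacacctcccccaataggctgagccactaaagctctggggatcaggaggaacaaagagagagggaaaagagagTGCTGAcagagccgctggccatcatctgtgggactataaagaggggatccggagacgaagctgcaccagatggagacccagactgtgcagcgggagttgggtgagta
Crygs, chr16:22811361-22811660, minus strand: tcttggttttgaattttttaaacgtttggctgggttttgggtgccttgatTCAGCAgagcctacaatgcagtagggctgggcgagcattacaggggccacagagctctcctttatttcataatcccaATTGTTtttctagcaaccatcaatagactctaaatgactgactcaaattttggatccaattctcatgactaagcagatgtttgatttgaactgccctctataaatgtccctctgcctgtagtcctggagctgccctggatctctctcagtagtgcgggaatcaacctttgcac
Cryba4, chr5:112252469-112252768, minus strand: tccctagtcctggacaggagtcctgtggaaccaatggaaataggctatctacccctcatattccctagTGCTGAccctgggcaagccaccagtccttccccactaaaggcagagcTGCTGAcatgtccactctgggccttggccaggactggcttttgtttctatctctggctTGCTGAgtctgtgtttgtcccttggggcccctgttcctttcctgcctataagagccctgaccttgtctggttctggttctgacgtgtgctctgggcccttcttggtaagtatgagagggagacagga
Crygd, chr1:65063391-65063690, minus strand: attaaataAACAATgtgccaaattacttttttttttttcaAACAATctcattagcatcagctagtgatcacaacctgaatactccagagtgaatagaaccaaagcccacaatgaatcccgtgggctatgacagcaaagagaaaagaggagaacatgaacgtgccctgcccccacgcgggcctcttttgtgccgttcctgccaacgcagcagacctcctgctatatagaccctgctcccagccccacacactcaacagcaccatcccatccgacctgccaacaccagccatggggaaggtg
Crygb, chr1:65082241-65082540, minus strand: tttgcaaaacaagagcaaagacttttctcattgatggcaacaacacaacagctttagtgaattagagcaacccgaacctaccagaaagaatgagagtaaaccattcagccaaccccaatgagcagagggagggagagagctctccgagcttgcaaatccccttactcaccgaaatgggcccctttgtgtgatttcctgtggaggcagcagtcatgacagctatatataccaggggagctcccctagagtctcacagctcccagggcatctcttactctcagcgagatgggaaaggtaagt
In Cryaa the Maf letters began 108 bases before the start, and in Cryba1 57 bases before it. In Crygs both matches lay on the opposite strand, the Maf letters 200 bases and the SOX letters 123 bases before the start. Cryba4 carried the Maf letters 182, 135 and 77 bases before the start, and Crygd the SOX letters 242 and 210 bases before it.

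The lens spots lay together. Connected groups of at least 10 lens spots formed 5 regions, of 35 and 30 spots in the E14.5 area, 13 spots in the area of E15.5 replicate 1, and 41 and 21 spots in the area of E15.5 replicates 2, 3 and 4. The other 6 lens spots lay outside these regions, among them a spot of 714 UMIs in the E14.5 area. The 2 E14.5 regions belonged to separate pieces of tissue, of 912 and 717 spots.

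**Figure D1:**
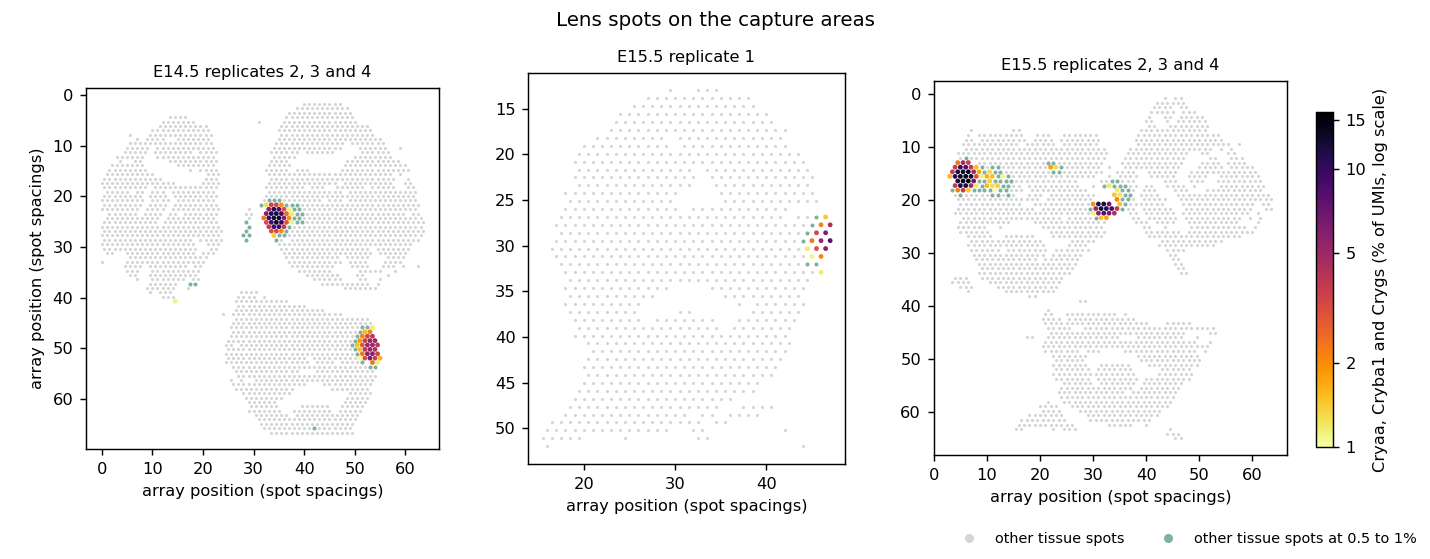
Position of tissue spots on the 3 capture areas with lens spots, in units of spot spacings on both axes. Grey points are other tissue spots, green points are other tissue spots with a share of Cryaa, Cryba1 and Crygs of 0.5 to 1%, and coloured points are the 146 lens spots by that share, which gather in 5 regions apart from 6 spots.

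Lens spots differed widely in their crystallin content. The share of the 3 rule genes had a median of 3.54%, 2.66% and 3.77% of UMIs and reached 12.9%, 7.96% and 15.1%. At the threshold, the lowest members stood at 1.06%, 1.10% and 1.02% and the highest spots left out of the same areas at 0.995%, 0.886% and 0.981%. In all, 46 members lay between 1% and 2%, and 96 spots of these areas lay just outside, between 0.5% and 1%. The other crystallins, which the rule did not use, took a median of 10.9%, 5.01% and 9.91% of the UMIs of a lens spot and at most 42.3%, 20.4% and 56.2%. Their share reached 1% in 65 of 66, 14 of 14 and 66 of 66 lens spots. Among the lens spots of each area, which share a library, the share of the rule genes ran with that of the other crystallins (Spearman's correlation 0.964, 0.965 and 0.967 over 66, 14 and 66 spots) and with that of the fibre membrane genes (0.973, 0.943 and 0.961). It ran against the share of neural retina genes (-0.484, -0.516 and -0.432), all being shares of the same total.

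Levels below are given in CPM, the UMIs of a gene in all spots of a kind in an area per 1000000 UMIs of those spots, and the ratio of a gene is its CPM in lens spots divided by its CPM in other tissue spots. Of the 10092 genes with enough UMIs for a ratio in all 3 areas (at least 10 measured or expected in lens spots), 190 (1.88%) had a ratio of at least 2 in every area and are called higher, and 323 (3.2%) had a ratio of at most 0.5 and are called lower. Crystallins took up a large part of the UMIs of lens spots, and the median ratio of all genes was 0.843, 0.910 and 0.760. With crystallins taken out of the total, 253 genes were higher and 215 lower, and with TMM scaling 245 and 224. The comparison is a description, since measured values of the same spots chose them. A spot can hold several cells, and fewer cells of a type and less RNA per cell cannot be told apart in these sums.

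The crystallins had the highest median ratios among the lists, 79.3, 114 and 117 for the rule genes and 90.5, 116 and 122 for the others, where the median over all genes was 0.843, 0.910 and 0.760. All 3 rule genes and all 10 other crystallins with enough UMIs were higher in lens spots. Cryaa, a small heat shock protein that acts as a chaperone in the lens, stood at 36509, 27933 and 47762 CPM in lens spots and at 461, 329 and 409 CPM elsewhere, for ratios of 79.3, 84.95 and 117. Cryba1, a structural beta crystallin, had ratios of 82.8, 141 and 123. Crygs, a gamma crystallin best known from the outer fibres of the adult lens, had ratios of 65.2, 114 and 97.2 on 226, 84 and 182 UMIs in lens spots, and so contributed little to the rule.

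Among crystallins that the rule did not use, Crygd, a structural protein of the fibre core, measured 27827, 14837 and 43686 CPM in lens spots and 241, 72.0 and 331 CPM elsewhere. Its ratios were 115, 206 and 132, and the lens spots lay far above the other spots in each area. Ratios of Cryga, Crygb, Crygc, Crygn, Cryba2, Cryba4, Crybb1 and Crybb3 lay between 78.6 and 166. Cryab, the partner of Cryaa and a stress protein that muscle and other tissues also make, measured 1563, 1493 and 1704 CPM in lens spots and 132, 159 and 177 CPM elsewhere. Its ratios of 11.8, 9.41 and 9.65 were the lowest of the 13. Crybb2 had 12, 4 and 9 UMIs in lens spots, too few for a ratio. Coding sequences of Cryga, Crygb, Crygc and Crygd were 80.8% to 85.4% identical to each other, so the division of UMIs among these 4 genes is uncertain, while Crygs shared 66.1% to 67.4% with them.

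Genes that carry the name crystallin but encode enzymes or distant relatives had no such ratios. Of 7 such genes 4 had enough UMIs, of which 0 were higher and 1 was lower. The lower gene was Cryl1, a lambda crystallin with dehydrogenase activity, with ratios of 0.467, 0.346 and 0.432. Cryz, a quinone reductase, measured 36.5, 32.7 and 28.6 CPM in lens spots against 32.8, 31.8 and 33.7 CPM elsewhere.

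Genes of the fibre membrane and cytoskeleton came next, with median ratios of 13.02, 9.80 and 16.5. Of 19 measured, 13 had enough UMIs, 10 of these were higher in lens spots and 0 were lower. Mip, the water channel of the fibre membrane, measured 1482, 1610 and 2304 CPM in lens spots against 18.5, 15.4 and 21.6 CPM elsewhere, with ratios of 80.2, 104 and 107. Lim2, a tetraspan membrane protein of fibres, stood at 2516, 1686 and 3575 CPM in lens spots, with ratios of 86.5, 178 and 118. The gap junction protein Gja3, which couples fibres to each other, had ratios of 32.6, 21.6 and 35.0. Bfsp1, which forms the beaded filament of the fibre cytoskeleton, had ratios of 73.9, 66.0 and 92.5, and Grifin, a galectin-like lens protein, 88.6, 76.8 and 81.4. Apart from Gja3, the ratios of these fibre genes lay in the range of the crystallins other than Cryab.

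Members that further tissues express had smaller ratios. They were 12.7, 9.12 and 16.5 for Tdrd7, an RNA granule protein, and 12.05, 9.80 and 15.2 for Caprin2, an RNA-binding protein. Plaat3, a phospholipase that takes part in the removal of fibre organelles, had ratios of 13.02, 6.43 and 16.5, and Slc7a11, a cystine transporter, 3.16, 5.18 and 3.00. Among those not called, Nrcam, a cell adhesion molecule, had ratios of 2.19, 1.98 and 4.16, and Hspb1, a small heat shock protein, 0.631, 0.380 and 0.305.

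Several fibre genes were too low for a ratio in the 14 lens spots of E15.5 replicate 1. Bfsp2, the partner of Bfsp1 in the beaded filament, had 139, 3 and 376 UMIs in lens spots. Dnase2b, the nuclease that degrades the DNA of fibre nuclei, had 44, 4 and 136 UMIs. Lctl, a klotho family protein, had 19, 3 and 64 UMIs, and Birc7, an inhibitor of apoptosis, 16, 3 and 41. In CPM, each of these 4 was highest in the area of E15.5 replicates 2, 3 and 4, and the 2 areas of the later stage lay on either side of the earlier one.

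Lens transcription factors were higher in part. Of 15 measured factors, all with enough UMIs, 8 were higher in lens spots and 0 were lower. Foxe3, which keeps the lens epithelium dividing, measured 69.9, 119 and 75.3 CPM in lens spots against 1.18, 0.615 and 1.31 CPM elsewhere, with ratios of 59.0, 194 and 57.6. Hsf4, the heat shock factor of fibre differentiation, measured 77.0, 46.9 and 128 CPM against 1.27, 1.07 and 1.56 CPM, with ratios of 60.7, 44.0 and 81.8. Both factors were thus near 1 CPM outside the lens spots. Prox1, which drives fibre elongation, had ratios of 5.06, 8.28 and 7.52, Maf, an activator of crystallin genes, 3.46, 3.04 and 3.81, and Pax6, required for eye formation, 4.48, 4.396 and 6.70. Six3, Pitx3 and Mab21l1 had ratios between 2.31 and 6.22. Prox1, Maf and Pax6 also act in brain, retina or other tissues, and each measured at least 25.2 CPM in the other spots of every area. Among those not called, Sox2 had ratios of 1.01, 1.55 and 1.01, and Sox1, which activates gamma crystallin genes, 1.07, 1.48 and 3.93.

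Of 9 genes of the lens epithelium, 4 were higher and 0 lower. Besides Foxe3, Pax6 and Mab21l1, which the list shares with the transcription factors, the amino acid transporter Slc38a3 had ratios of 2.05, 3.04 and 2.46. Cdh1, the adhesion molecule of epithelia, had ratios of 1.03, 1.35 and 0.616, and Pdgfra, a growth factor receptor, 0.736, 0.638 and 0.441. Of 15 basement membrane genes of the lens capsule, 13 had enough UMIs, 3 were higher and 0 were lower. These were the collagen IV chains Col4a6 (5.74, 7.30 and 4.16) and Col4a5 (2.83, 3.60 and 2.24) and the laminin chain Lama1 (4.21, 3.83 and 3.21). Chains found in most basement membranes had ratios of 1.36, 1.21 and 1.02 for Col4a1 and 0.717, 0.576 and 0.556 for Lamc1.

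**Figure D2:**
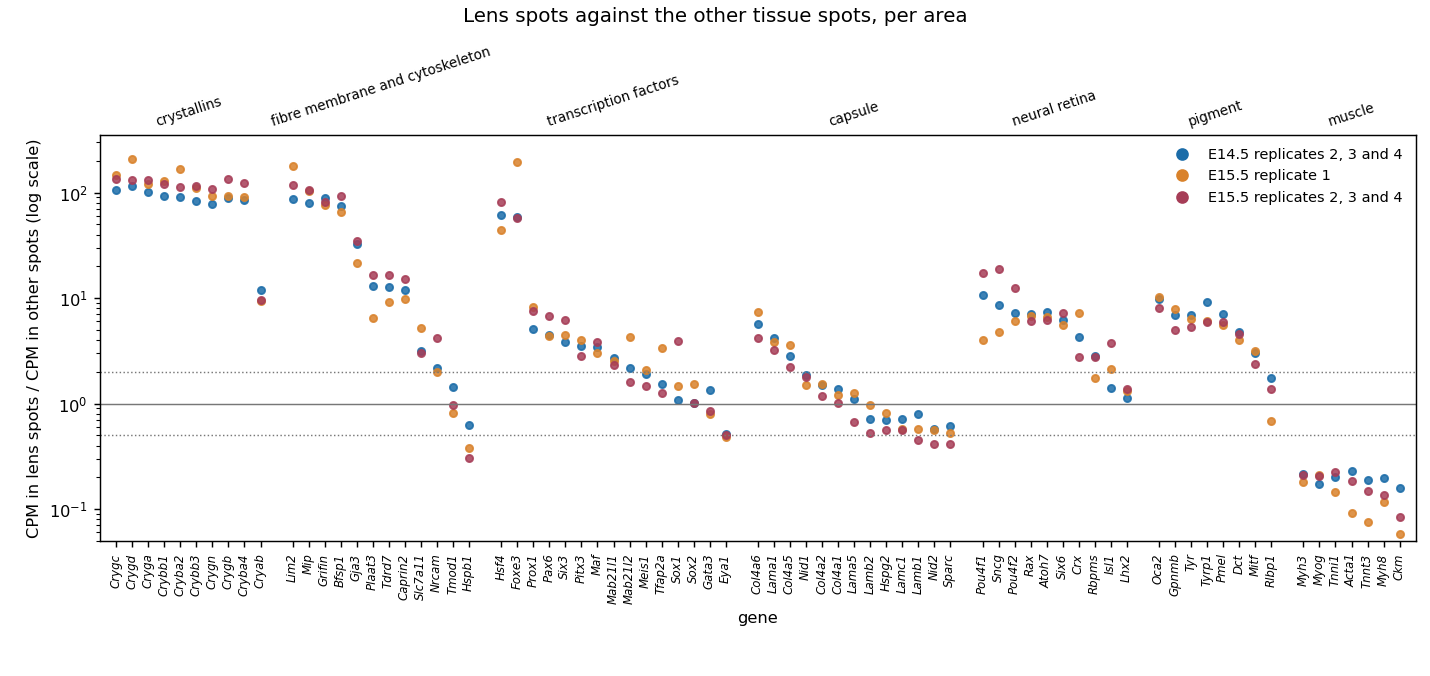
Ratio of CPM in lens spots to CPM in other tissue spots (log axis) for list genes with enough UMIs that are reported here, 1 point per capture area, grouped by list, with a solid line at a ratio of 1 and dotted lines at 2 and 0.5. Crystallins other than Cryab, several fibre membrane genes, Hsf4 and Foxe3 lie highest, and among the lists drawn the 7 muscle genes lie lowest.

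The plot of ratios by gene shows these groups side by side, with the 3 areas of a gene close to each other on its log axis compared with the distance between groups. Few signalling and cell cycle genes were called, where over all genes tested 1.88% were higher and 3.2% lower. Lists this short can hold few calls at those shares. Fibroblast growth factor signalling drives fibre differentiation, and of 13 genes of this pathway with enough UMIs among 14 measured, 0 were higher and 0 lower. Fgf9, a ligand made in the retina, had ratios of 2.001, 2.22 and 1.93, and the receptor Fgfr3 1.304, 1.33 and 0.991. Of 5 genes of cell cycle exit, 4 had enough UMIs, 0 were higher and 1 was lower. That gene was Cdkn1c, an inhibitor of cyclin-dependent kinases, with 1311, 1306 and 1221 CPM in lens spots and 2662, 2707 and 3233 CPM elsewhere. Of 14 proliferation genes, 11 had enough UMIs, 1 was higher and 0 lower. The higher gene was the cyclin Ccnd1, with ratios of 3.00, 2.26 and 2.39, while Mki67, a marker of dividing cells, had 0.923, 0.969 and 0.632. Pcna was at 0 UMIs in lens spots and at most 0.185 CPM elsewhere.

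Markers of the tissues around the lens were higher in lens spots than in the other spots taken as a whole. Of 16 neural retina genes, 11 had enough UMIs, 8 were higher and 0 lower, and the summed level of the measured genes was 2423, 2649 and 1528 CPM in lens spots against 533, 595 and 281 CPM elsewhere. Atoh7, which specifies retinal ganglion cells, had ratios of 7.32, 6.63 and 6.17, and Rax, a factor of the early eye field, 7.03, 6.83 and 6.10. Otx2 was at 0 UMIs in lens spots, but also at no more than 0.218 CPM elsewhere. Of 12 genes of pigment epithelium and melanocytes, 8 had enough UMIs, 7 were higher and 0 lower, and the sum over the list was 1317, 1149 and 1222 CPM against 224, 257 and 245 CPM. Pmel, a melanosome protein, had ratios of 7.14, 5.55 and 5.90. At 1 spot spacing from the nearest lens spot, the sum over the retina list was 1881, 4175 and 1283 CPM. Over the pigment list it was 1389, 800 and 887 CPM there, so spots next to lens spots also held these genes. Rpe65, a defining enzyme of the pigment epithelium, was at 0 UMIs with at most 0.171 CPM elsewhere, so that neither Rpe65 nor Otx2 separates the 2 kinds of spot. Pax6 and Six3 are shared by lens and retina, and the part of neighbouring tissue in their ratios was not tested.

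Of 10 genes of cornea and surface ectoderm, 6 had enough UMIs, 1 was higher and 1 lower. Krt12, the keratin of the corneal epithelium, had ratios of 15.7, 12.3 and 8.14. Krt13, a keratin of oral epithelium, had 9, 0 and 19 UMIs in lens spots and stood at 43.6, 15.01 and 51.7 CPM elsewhere, where a count of 0 in the second area allows up to 4.26 CPM. Perp was at 0 UMIs, with at most 0.289 CPM elsewhere. The summed level of this list was 785, 898 and 456 CPM in lens spots and 1000.2, 1005 and 1141 CPM elsewhere. Of 10 genes of periocular mesenchyme, 8 had enough UMIs, 1 was higher and 0 lower, namely Lmx1b, a factor of the anterior eye segment, with ratios of 4.83, 4.51 and 3.48. Sums over this list were 948, 773 and 899 CPM against 855, 884 and 1185 CPM.

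Vessel, blood and macrophage genes were called in neither direction, where over all genes tested 1.88% were higher and 3.2% lower. Of 8 endothelial genes 7 had enough UMIs, of 8 blood genes 5, and of 9 macrophage genes 6, with 0 higher and 0 lower in each list. Endothelial sums were 325, 338 and 330 CPM in lens spots against 367, 475 and 481 CPM, and macrophage sums 158, 124 and 201 CPM against 207, 219 and 288 CPM. Blood genes summed to 7673, 4630 and 5062 CPM against 5576, 7063 and 5206 CPM, so that lens spots stood above the others in the E14.5 area and below them in both E15.5 areas.

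Genes of muscle, cartilage, bone, forebrain and airway had lower sums in lens spots than in other spots. All 7 skeletal muscle genes were lower (sums of 734, 541 and 852 CPM against 3507, 4083 and 4620 CPM). So were 4 of 7 cartilage genes (896, 1236 and 682 CPM against 3241, 2511 and 4484 CPM) and 4 of 6 bone genes with enough UMIs among 7 (7033, 6103 and 6235 CPM against 15752, 12080 and 21879 CPM). Of 10 forebrain genes 8 had enough UMIs and 4 were lower (247, 595 and 263 CPM against 1257, 1469 and 683 CPM). Of 7 multiciliated airway genes 1 had enough UMIs and was called in neither direction (15.2, 19.9 and 14.7 CPM against 39.4, 26.1 and 43.7 CPM). Not all of these genes were far from the lens. Bone genes summed to 17221, 5650 and 12254.5 CPM at 1 spot spacing from the nearest lens spot. At 13 or more spacings they summed to 17163, 11942 and 24005 CPM.

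Outside the lists, the 10 highest genes were led by Capn3, a calpain protease with a lens form, at 405, 163 and 598 CPM in lens spots and 9.56, 4.44 and 9.95 CPM elsewhere, with ratios of 42.4, 36.8 and 60.1. Next were Mgarp, a mitochondrial protein (15.4, 13.4 and 17.7), Aldh1a1, a retinaldehyde dehydrogenase (17.6, 12.7 and 23.5), and Hmx1, a homeobox factor of the eye and ear (10.4, 9.37 and 12.8). The channel gene Trpm3, the glutathione synthetase Gss, Aldh1a7, Fgf15, Tox2 and Igfbp7 had ratios between 4.34 and 14.3. The 5 lowest were Tceal7 (0.163, 0.0870 and 0.149) and the muscle contraction genes Mylpf, Myl4, Tnnc2 and Tnnt2, with ratios between 0.128 and 0.205.

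Levels were then followed from the inside of the lens outward. Inner lens spots, with lens spots on all 6 sides, numbered 26, 2 and 16, and outer lens spots 40, 12 and 50, so that inner values of E15.5 replicate 1 rest on 2 spots. Crystallins took 30.2%, 12.3% and 47.5% of UMIs in inner spots and 9.35%, 9.76% and 15.8% in outer spots. The share was 2.31%, 1.79% and 2.34% at 1 spot spacing from the nearest lens spot, 1.10%, 0.535% and 1.10% at 2 spacings, and 0.0649%, 0.0484% and 0.0693% at 13 or more. This gradient lies in the measure that chose the spots and is a description.

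Cryaa, Cryba1 and Crygd declined at every step outward in all 3 areas. Cryaa measured 64303 CPM in inner spots of the E14.5 area, 20914 in outer spots, 5637 at 1 spacing, 2518 at 2 and 144 at 13 or more. In the area of E15.5 replicates 2, 3 and 4 it measured 94244, 31155, 5012, 2271 and 114 CPM at the same positions, and in that of E15.5 replicate 1 35060, 26498, 5776, 2003 and 129 CPM. Lim2 took the same course, with 4278, 1528, 367, 180 and 7.60 CPM in the E14.5 area. Cryab measured 2477, 1923 and 2661 CPM in inner spots and 358, 287 and 281 CPM at 1 spacing, and did not decline further at every step, with 141, 174 and 167 CPM at 13 or more. Crygb in the area of E15.5 replicate 1 (137 and 138 CPM) and Crygs in that of E15.5 replicates 2, 3 and 4 (4.25 and 4.85 CPM) were slightly lower at 2 than at 3 spacings.

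**Figure D3:**
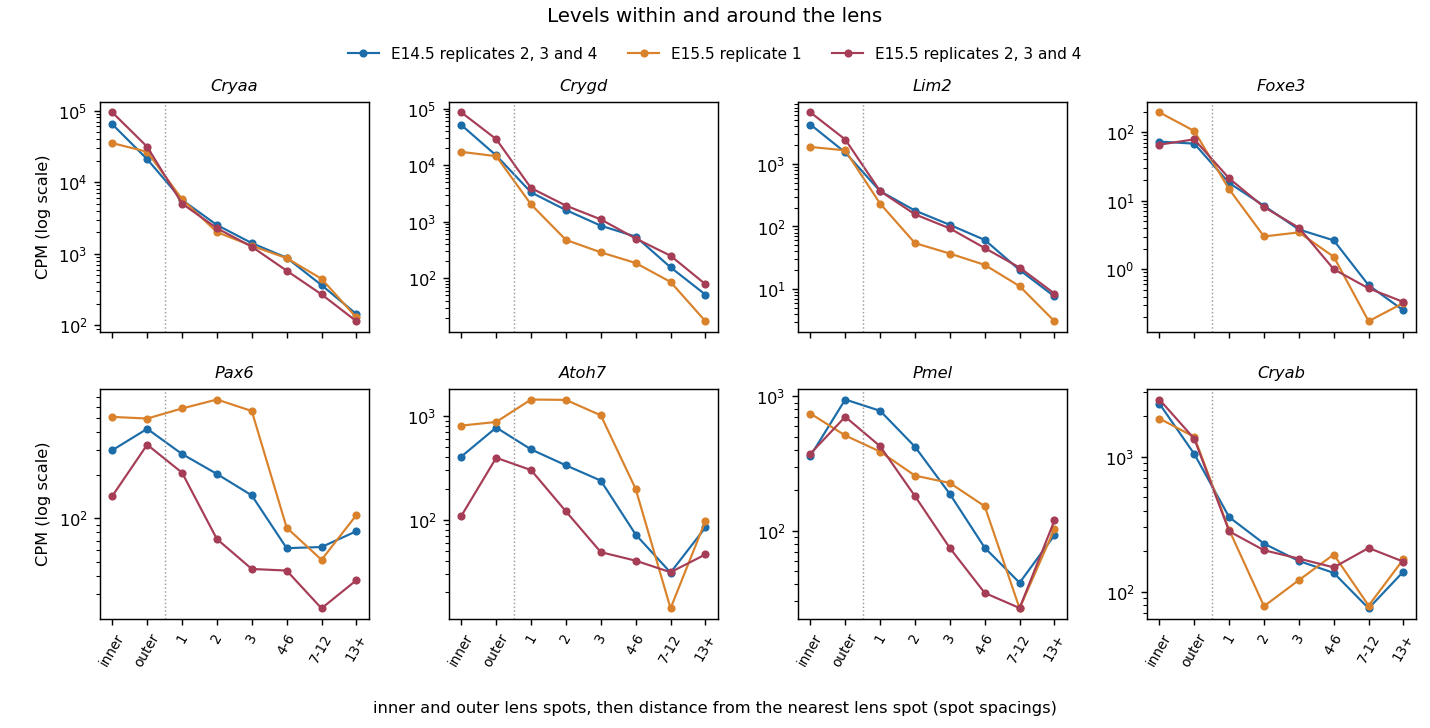
CPM (log axes) of 8 genes in inner and outer lens spots and in tissue spots at increasing distance from the nearest lens spot, in spot spacings, with 1 line per capture area. Cryaa, Crygd and Lim2 fall at every step in each area, while Pax6, Atoh7 and Pmel are highest in outer lens spots in both areas of replicates 2, 3 and 4.

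Of 9371 genes with at least 10 UMIs in inner and outer lens spots together in every area, 169 (1.8%) were higher in inner spots of all 3 areas and 4635 (49.5%) were higher in outer spots. Crystallins take up more of the total in inner spots, and with crystallins taken out of it 1040 genes were higher in inner and 2208 in outer spots. All 3 rule genes and all 10 other crystallins were higher in inner spots, as were 7 of 13 fibre membrane genes, and 0 genes of these lists were higher in outer spots. Among 15 transcription factors, 2 were higher in inner and 4 in outer spots, but 4 and 1 with crystallins out of the total. Maf was 1 of those higher inside, at 1026, 873 and 1392 CPM in inner spots and 501, 589 and 599 CPM in outer spots. Foxe3 differed in direction between areas, with 73.0, 195 and 65.8 CPM in inner and 68.1, 104 and 78.7 CPM in outer spots. Of 9 epithelial genes 0 were higher in inner and 4 in outer spots, of 11 proliferation genes 0 and 6, and of 13 capsule genes 3 and 5. With crystallins out of the total these counts were 2 and 2, 0 and 4, and 4 and 1, so that the balance of epithelial, capsule and transcription factor genes rested on the total used.

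Genes of neighbouring tissues were more often higher in outer than in inner spots, as were genes in general. Of 11 retina genes 0 were higher in inner and 4 in outer spots, of 8 pigment genes 0 and 3, of 5 cornea genes 0 and 4, and of 8 genes of periocular mesenchyme 1 and 6. Atoh7 measured 408, 813 and 109 CPM in inner spots and 779, 882 and 397 CPM in outer spots. Pmel measured 360, 746 and 375 CPM in inner spots and 948, 512 and 705 CPM in outer spots, so that the 2 inner spots of E15.5 replicate 1 stood above the outer ones. The remaining lists had 0 genes higher in inner spots on the full total. The genes higher in outer spots numbered 8 of 12 in fibroblast growth factor signalling, 3 of 4 in cell cycle exit, 2 of 7 in endothelium, 0 of 4 in blood, 0 of 5 in macrophages, 3 of 6 in muscle, 2 of 6 in cartilage, 6 of 6 in bone, 6 of 7 in forebrain, 1 of 1 in airway and 1 of 3 among crystallin-named enzymes. With crystallins out of the total, fibroblast growth factor signalling had 1 gene higher in inner and 2 in outer spots, endothelium 1 and 0, blood 2 and 0, macrophages 2 and 0, retina 1 and 3, pigment 0 and 2, cornea 0 and 4, periocular mesenchyme 1 and 5, cell cycle exit 0 and 2, bone 0 and 4 and forebrain 0 and 3, while muscle, cartilage, airway and enzyme counts were as before.

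The mixture of crystallins differed between lens regions. Crystallins took 18.6% and 14.02% of UMIs in the E14.5 regions, 10.5% in the region of E15.5 replicate 1 and 25.4% and 26.7% in the regions of E15.5 replicates 2, 3 and 4. As a share of crystallin UMIs, Cryaa made up 24.1%, 16.5%, 27.4%, 19.9% and 19.6% in these 5 regions. Crybb1, a beta crystallin, made up 12.01%, 6.89%, 15.04%, 10.99% and 11.5%, and Crygb, a gamma crystallin, 4.57%, 5.998%, 2.55%, 5.08% and 5.01%. For these 3 genes the 2 regions of E15.5 replicates 2, 3 and 4, on the same piece of tissue of 1359 spots, lay close to each other. The 2 E14.5 regions, which also share a library but lay on separate pieces, lay further apart. Crygd made up 15.8%, 18.1%, 14.6%, 18.1% and 18.3%, and Crybb3 between 5.50% and 5.65% in all 5. Regions are not replicates of a stage, and no test was made.

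**Figure D4:**
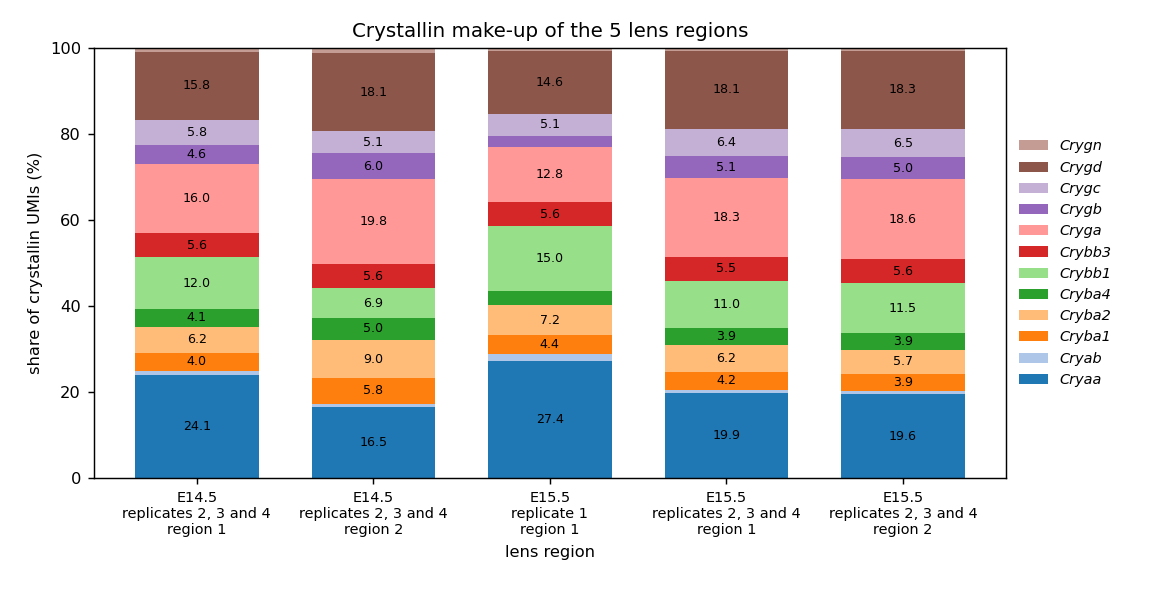
Share of crystallin UMIs (%) taken by each of 12 crystallins in the 5 lens regions, 1 bar per region, without Crygs and Crybb2, which took up to 0.117% and 0.00565%. The parts of Cryaa and Crybb1 are smallest in the second E14.5 region and largest in the region of E15.5 replicate 1, and the bars of E15.5 replicates 2, 3 and 4 look alike.

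Fibre genes also differed between regions. Bfsp1 measured 2087 and 1053 CPM in the E14.5 regions, 932 in that of E15.5 replicate 1, and 3499 and 4195 in those of E15.5 replicates 2, 3 and 4. In the same order, Bfsp2 measured 36.2, 42.0, 4.44, 170 and 126 CPM, and Dnase2b 16.1, 5.79, 4.44, 56.5 and 55.1 CPM. For these 3 genes both E14.5 regions lay between the E15.5 areas.

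Cryaa outside lens spots was highest on pieces of tissue that held a lens region. In the E14.5 replicate 1 area, with a median of 6752 UMIs per spot, Cryaa had 18 UMIs (1.17 CPM), Cryba1 1 and Crygs 1, and the spot with the highest share reached 0.676% on 592 UMIs. In pieces of at least 500 spots that held a lens region, Cryaa outside lens spots stood at 539 and 398 CPM at E14.5 and at 328 and 606 CPM at E15.5. A piece of 664 spots with 1 lens spot at E14.5 had 192 CPM, and a piece of 527 spots with 0 lens spots at E15.5 had 68.1 CPM. Crygd stood at 98.98 CPM on the piece with 1 lens spot and at 71.7 CPM on the piece of E15.5 replicate 1, which held a region. Cryab had another order, with 72.0 CPM in the E14.5 replicate 1 area and 125 to 182 CPM in the other pieces. The other spots that serve as reference for the ratios above thus held some crystallin UMIs, and leaving out those within 3 spacings of a lens spot gave 197 higher and 318 lower genes.

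Between E14.5 and E15.5 few genes differed within lens spots. UMIs summed over the lens spots of each area, 1 area at E14.5 against 2 at E15.5, were compared with edgeR's quasi-likelihood test with Benjamini-Hochberg adjustment at a threshold of 0.1. Of 12179 genes tested, 2 were higher at E15.5 (0.0164%) and 5 lower (0.0411%), while 293 and 143 had an unadjusted p under 0.05. The E14.5 area is assumed to vary like the 2 E15.5 areas, which leave 1 residual degree of freedom. Each p and SE thus also draws on spread pooled over genes, and not on that of the gene alone. Both can be small where the E15.5 areas lay far apart, as for Ttr (2.84 and 25.6 CPM in lens spots). Of the 7 called genes, Hba-x belonged to the blood list and the other 6 to no list. Gpi1, Arhgef25 and Hba-x were called under every alternative that gave them a p, whereas Irak1 was called in 7 of 10 alternatives, Tmem134 in 6 of 10, Pax2 in 5 of 8 and Ttr in 8 of 9.

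For the crystallins no stage difference was called, and the error was wide. Cryaa had a log2 fold change of 0.06 ± 1.22 SE and Cryba1 of -0.08 ± 0.74, each with an adjusted p of 0.999 by edgeR. The median log2 fold change was 0.06 over the 3 rule genes (2 above 0) and 0.02 over the 11 others (7 above 0), against 0.02 over all genes tested. Of 17 fibre genes tested, 14 were above 0 (median 0.38) and 0 were called. Dnase2b, with the UMIs given above, had a log2 fold change of 1.52 ± 0.44 (adjusted p = 0.481 by edgeR), Lctl of 1.71 ± 0.60 and Bfsp2 of 1.16 ± 0.39, each of the latter with an adjusted p of 0.999. For these 3 genes the E14.5 level lay between those of the E15.5 areas.

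Medians of the log2 fold change were 0.03 over 15 transcription factors (10 above 0), 0.28 over 9 epithelial genes (7), -0.20 over 15 capsule genes (5), -0.20 over 14 genes of fibroblast growth factor signalling (5), -0.20 over 5 genes of cell cycle exit (0) and -0.10 over 12 proliferation genes (5), with 0 called in each. In the tissues around the lens, medians were -0.34 over 14 retina genes (2 above 0), 0.00 over 10 pigment genes (6), -0.17 over 7 cornea genes (1), -0.11 over 9 genes of periocular mesenchyme (4), -0.09 over 8 endothelial genes (2) and 0.22 over 7 macrophage genes (5), again with 0 called. The remaining medians were -1.43 over 8 blood genes (0 above 0, 1 called lower), 0.71 over 9 forebrain genes (9), 0.35 over 6 bone genes (4), -0.18 over 7 cartilage genes (3), -0.04 over 7 muscle genes (3), -0.28 over 7 crystallin-named enzymes (2) and 0.04 for the 1 airway gene, with 0 called besides the blood gene.

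The 2 genes higher at E15.5 differed across the heads, not in lens spots alone. Gpi1 (chr7:34201330-34230336, GRCm38), a glycolytic isomerase, measured 25.1 CPM in lens spots at E14.5 and 295 and 390 CPM at E15.5 (log2 fold change 3.77 ± 0.39 SE, adjusted p = 2.79e-14 by edgeR). Other tissue spots stood at 29.0, 375 and 508 CPM. The E14.5 replicate 1 area, with no lens spots, stood at 317 CPM, so Gpi1 was low in 1 of the 2 E14.5 libraries and not in the other. Irak1 (chrX:74013914-74023918), an interleukin receptor kinase, measured 15.5 CPM against 72.5 and 55.0 CPM (1.98 ± 0.38, adjusted p = 0.00115 by edgeR). It stood at 22.7, 82.8 and 90.4 CPM in other spots and at 94.2 CPM in the E14.5 replicate 1 area. For both genes 1 library thus lay apart from the other 3, and library and stage cannot be told apart in the lens spots.

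Of the 5 genes lower at E15.5, Arhgef25 and Tmem134 were low at E15.5 across the heads. Arhgef25 (chr10:127182525-127190083), an exchange factor for small GTPases, measured 111 CPM in lens spots at E14.5 and 21.3 and 9.42 CPM at E15.5 (log2 fold change -3.09 ± 0.36 SE, adjusted p = 1.13e-11 by edgeR). In other spots it stood at 159, 46.3 and 17.1 CPM and in the E14.5 replicate 1 area at 125 CPM. Tmem134 (chr19:4125934-4132307), a membrane protein, measured 57.2, 22.7 and 13.9 CPM in lens spots (-1.77 ± 0.37, adjusted p = 0.00575 by edgeR), 64.6, 34.6 and 21.8 CPM in other spots and 64.6 CPM in the E14.5 replicate 1 area. For both genes the E14.5 area with lens spots lay above the E15.5 areas in lens and other spots alike. The E14.5 replicate 1 area, over all its spots, also lay above the other spots of the E15.5 areas.

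Hba-x and Pax2 were uneven between the E14.5 lens regions. Hba-x (chr11:32276400-32278116), an embryonic globin of primitive red cells, measured 102 CPM in lens spots at E14.5 and 12.8 and 7.53 CPM at E15.5 (log2 fold change -3.48 ± 0.38 SE, adjusted p = 2.5e-13 by edgeR), with 15.5, 18.02 and 16.2 CPM in other spots. The E14.5 regions stood at 42.9 and 198 CPM, and the summed blood genes were highest in the lens spots of the same area. Pax2 (chr19:44756045-44837871), a factor of the optic stalk, had 67, 1 and 2 UMIs in lens spots (18.5, 1.42 and 0.753 CPM, log2 fold change -4.25 ± 0.82, adjusted p = 0.00115 by edgeR), with 4.91 and 40.5 CPM in the E14.5 regions. Both genes were higher in the second E14.5 region than in the first. Ttr, a thyroid hormone carrier that the choroid plexus makes in large amounts, measured 152, 2.84 and 25.6 CPM in lens spots (-3.03 ± 0.35, adjusted p = 2.91e-12 by edgeR). It stood at 2019, 8.36 and 208 CPM in other spots and at 6.61 CPM in the E14.5 replicate 1 area, so that lens spots lay below other spots in each area and both had the same order over areas.

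**Figure D5:**
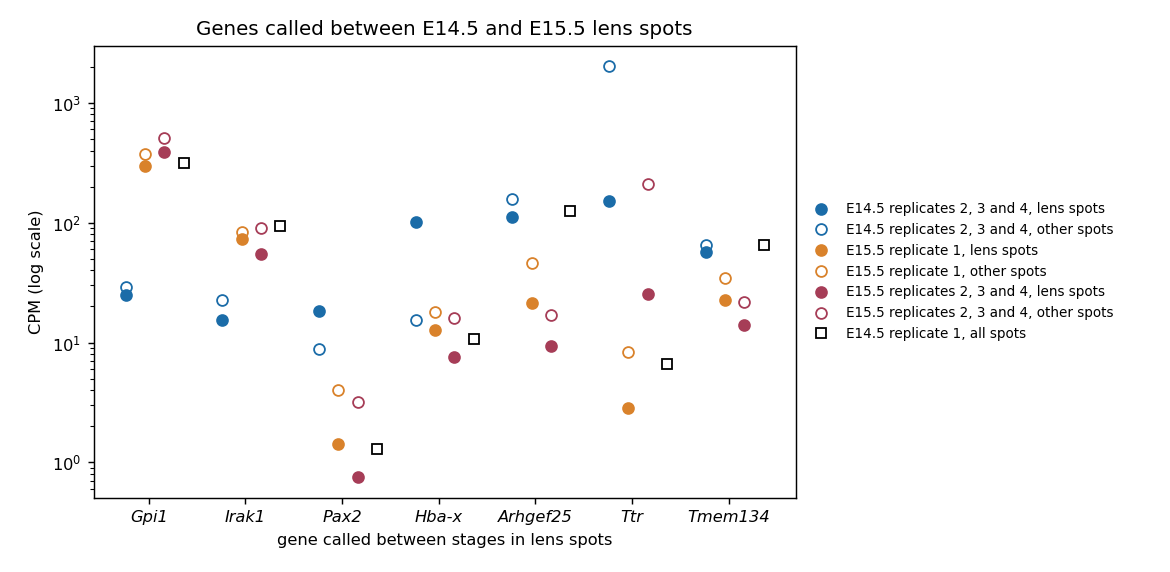
CPM (log axis) of the 7 genes called between stages in lens spots, with filled points for lens spots, open circles for other tissue spots of the same area and open squares for all spots of the E14.5 replicate 1 area, which has no lens spots. For Gpi1 and Irak1 the square lies near the other spots of the E15.5 areas, and for Arhgef25 and Tmem134 near those of the other E14.5 area.

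Whether lens spots differed between stages in another way than the rest of the head was asked with the interaction of region and stage, with the area as a term. Of 15419 genes tested with edgeR's quasi-likelihood test and Benjamini-Hochberg adjustment, 97 had a ratio of lens to other spots that was higher at E15.5 (0.629%) and 10 a lower one (0.0649%). In 86 of the 97, other spots were lower in both E15.5 areas than at E14.5, in 67 lens spots were higher in both, and 0 were called within lens spots. Of the 10, lens spots were lower in both E15.5 areas in 9 and other spots higher in 8. The count depended on the settings. Among genes with at least 10 UMIs in every sum edgeR called 0 (221 and 88 had an unadjusted p under 0.05, higher and lower), DESeq2 called 1, and a 2% threshold for lens spots left 4.

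Few members of the lists were among these genes. Of 15 lens transcription factors, Sox1 was called (log2 change of the ratio 1.31 ± 0.37 SE, adjusted p = 0.0673 by edgeR), with 48.6, 42.6 and 53.1 CPM in lens spots and 45.2, 28.9 and 13.5 CPM in other spots. Its level in lens spots thus differed little between areas, while that in other spots was lower at E15.5. Of 10 forebrain genes 3 were called, among them Gad2 (1.53), an enzyme of inhibitory neurons, and Dlx5 (1.32), a homeobox factor, whose change was -0.073 with a 5% threshold for lens spots. Gad2 stood at 68.5, 131 and 88.5 CPM in lens spots and at 212, 157 and 86.9 CPM in other spots. Of 8 blood genes the embryonic globins Hba-x (-3.56) and Hbb-y (-2.59) were called. None of the 3 rule genes (log2 changes of the ratio from 0.33 to 0.69) and none of the 11 other crystallins (from -0.30 to 0.59) was called, and 0 were called in the lists not named here.

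Over all genes tested, the median log2 change of the ratio was -0.04. It was 0.67 over the 3 rule genes, 0.42 over the 11 other crystallins, 0.35 over 18 fibre genes, 0.25 over 15 transcription factors and 0.23 over 9 epithelial genes. It was -0.26 over 15 capsule genes, -0.21 over 14 genes of fibroblast growth factor signalling, -0.20 over 5 genes of cell cycle exit, -0.24 over 13 proliferation genes and -0.25 over 7 crystallin-named enzymes. Retina genes stood at -0.12 (15 genes), pigment genes at -0.25 (11), cornea genes at -0.64 (10) and periocular mesenchyme at -0.56 (10). Endothelial genes were at -0.37 (8), blood genes at -1.37 (8), macrophage genes at -0.28 (9), muscle genes at -0.59 (7), cartilage genes at -0.24 (7), bone genes at 0.02 (7), forebrain genes at 1.15 (10) and airway genes at -0.03 (7).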

How the data were processed

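For each of 4 Visium capture areas the authors deposited a matrix of unnormalised counts (UMIs by gene and spot). The submitters' processing notes name Space Ranger and mm10, and the file headers give version 1.3.1 for both replicate 1 areas and 2.0.0 for the others. Probes read each gene, so ratios and stage tests compared levels within a gene. Sums and shares over genes were not corrected for differences between probes. Cryge and Crygf were not analysed and are absent from the crystallin shares. Barcodes off the tissue (19) were left out. Areas held 15438992 to 109127953 UMIs. Counts were summed over lens and other tissue spots of each area (Python 3.11.15). Stage was tested on these sums with edgeR 4.0.16 in R 4.3.3 (TMM, filterByExpr, quasi-likelihood), with DESeq2 1.42.0 as an alternative. The scripts were tested on simulated counts with 200 changed genes: at log2 changes of 1, 2 and 3, edgeR recovered 26.5%, 85.7% and 91.9% within lens spots (11825 genes, 12.9% of calls false, above the threshold of 0.1) and 11.5%, 67.6% and 76.5% of interactions (15233 genes, 7.76% false). Gene positions and coding sequences came from GENCODE M21.

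Lens spots, gene lists and tests were chosen with earlier results of these data known. Named genes were list members, the 10 highest and 5 lowest other genes by ratio with at least 100 UMIs, and the 10 called genes with the largest stage change in each direction. Intervals and floors of 3 counts cover counting error only. A few genes counted in the lists are not reported by name here.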

Additional observations from a re-analysis of the deposited data

Results flagged for a closer look

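The ratio of lens to other spots differed between stages (edgeR interaction, adjusted p under 0.1) for the genes that follow, given as the log2 change at E15.5 against E14.5. Among genes with a higher ratio at E15.5 were Cbln4 (4.98), Nkx2-1 (3.30), Folr1 (3.20), Hrh3 (2.96), Trpc4 (2.82), Amer3 (2.34), Oprm1 (2.23), Ankfn1 (2.22) and Pou3f4 (2.16), and the list members Gad2 (1.53), Dlx5 (1.32) and Sox1 (1.31). Drc1 had 0 UMIs in lens spots at E14.5, which allows up to 0.828 CPM, so only its adjusted p of 0.0881 is given. Cbln4 rested on 1, 2 and 19 UMIs in lens spots, and Nkx2-1 on 42, 1 and 22 UMIs against 113, 2.73 and 8.15 CPM in other spots. Hrh3 rested on 7, 3 and 19 UMIs in lens spots, Trpc4 on 10, 3 and 53, and Oprm1 on 37, 9 and 31. Among the genes of no list, Folr1 was called in 6 of 10 alternatives, Amer3 in 4 of 10, Nkx2-1 in 4 of 9 and the others in 1 to 3. The direction of Nkx2-1 turned at a 2% (-8.40) and a 5% threshold for lens spots (-8.76), and that of Dlx5 at 5% (-0.073).

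Folr1, a folate receptor, stood at 17.1, 41.2 and 23.0 CPM in lens spots and at 17.6, 2.03 and 4.79 CPM in other spots, so that its ratio of 0.974 at E14.5 compared with 20.3 and 4.80 at E15.5.

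A lower ratio at E15.5 was found for Hba-x (-3.56), Hbb-y (-2.59), Krt4 (-1.79), Aqp3 (-1.59), Meox2 (-1.59), Col8a1 (-1.56), Irx2 (-1.45), Gas2 (-1.26), Krtdap (-1.21) and Tril (-1.05). Hba-x and Hbb-y are embryonic globins, and Hbb-y had 92, 1 and 21 UMIs in lens spots. Aqp3 had 73, 4 and 29 UMIs there and Meox2 72, 3 and 32. Hba-x was called in 9 of 9 alternatives, Hbb-y and Krt4 in 4 of 9 each, and the others in 1 to 3. Krt4, Krtdap and Aqp3 are genes of stratified epithelium. Krt4 measured 27.6, 5.68 and 14.7 CPM in lens spots and 67.3, 122 and 97.3 CPM in other spots.

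The E14.5 replicate 1 area, which entered no comparison of lens spots, held 20 UMIs of Cryaa, Cryba1 and Crygs, more than the 3 counts that a count of 0 allows.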

How the results depend on the processing

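The number of lens spots depended on the threshold, with 242 at 0.5%, 100 at 2% and 52 at 5%, and 273 where the other crystallins reached 1%. Genes higher in lens spots numbered 299 with no UMI minimum, 93 with at least 50 UMIs, 90 at a ratio of 4 and 56 with spots thinned to equal UMIs. Without each area in turn they numbered 217 to 290, the highest without E15.5 replicate 1. Genes lower in lens spots numbered 215 with crystallins out of the total, 2667 with no minimum, 111 with at least 50 UMIs, 66 at the inverse ratio and 54 when thinned, and 411 to 728 without each area in turn (521 without E14.5 replicates 2, 3 and 4 and 728 without E15.5 replicate 1, where more genes could pass in 2 areas). Within lens spots, the 7 stage calls became 3 with DESeq2, which lost Irak1, Pax2, Tmem134 and Ttr. Irak1 and Tmem134 were also lost at a 5% threshold and against a log2 fold change of 1, Tmem134 with library size alone, and Pax2 at a 2% threshold and with thinned sums. Of the 107 interaction calls, there were 1 with DESeq2, 14 with library size alone, 0 with at least 10 UMIs in every sum, 4 at a 2% and 1 at a 5% threshold, 4 with thinned sums and 3 against a log2 fold change of 1. There were 71 with spots of the 5 regions only, an alternative chosen after seeing the data. On few UMIs in lens spots, the fitted log2 change of Nkx2-1 turned from 3.30 to -8.40 at 2% and -8.76 at 5%, and Dlx5 to -0.073 at 5%. Genes higher in inner spots numbered 368 of 8912 at 5% (in 2 areas), where 6563 were higher in outer spots. With crystallins out of the total they numbered 1040, which left 2208 higher in outer spots. At 5%, 2 of 3 rule genes and 13 of 17 fibre genes were higher in inner spots, and 3 fibre genes in outer spots. The cause of these changes was not tested. No paired analysis was possible because just 1 E14.5 area has lens spots, so that the areas labelled replicates 2, 3 and 4 give 1 pair between stages. Leaving out an area of E15.5 leaves no residual degrees of freedom, so no stage test was made without it.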
